A study of Saccharomyces cerevisiae with 16 samples.

Results

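The genes described here lie within 20 kb of an end of a nuclear chromosome of budding yeast, *Saccharomyces cerevisiae*. They were chosen by position and by name, and not by a measured value: every row of the expression table whose gene starts or ends less than 20 kb from a chromosome end in genome build R64, leaving out the rows named YEL and YER, *COS1* to *COS10*, *PHO11*, *PHO12*, *CHA1*, *ADH4*, *ARN2*, *ENB1* and *SIR1*. The rule gave 224 genes of 6117 matched nuclear genes and 7125 table rows. They cover 30 of the 32 ends, with 4 to 11 genes per end, and none lies on chromosome V. Of the 224 genes, 62 had no characterized product and 95 coded for a protein at least 90% identical to another over at least 90% of its length. Reads of such copies may be shared between them, so the level of each single copy is uncertain.

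RNA was measured in 6 groups of 2 biological replicates, all grown in the rich medium YPD to an OD600 of 0.7 to 1.0. Serine (replicates 2 and 3) carried the wt genotype and, per its group name, was given serine, and control (2 and 3) was its wt counterpart without it. CK2 (2 and 3) is a mutant group whose labels do not say which gene was changed. *CKA1*, which codes for a catalytic subunit of casein kinase 2, was read at 0.064 and 0.068 RPKM (reads scaled to gene length in kilobases and to library size) in CK2, against 66.9 and 57.5 RPKM in WT. H3T11A (1 and 3) carries histone H3 with threonine 11 changed to alanine, and YBL574 (2 and 3) is the strain with unchanged H3 that it is set against. Per the study's strain list, both lack the chromosomal H3 and H4 genes and carry these histones on a plasmid. WT (2 and 3) was labelled wt. For H3T11A and YBL574 a second library of each RNA extraction was averaged with the first. The labels do not say that the replicates came from separate cultures, so the p-values below measure the spread between these samples.

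The last stretch of each yeast chromosome is packed by the SIR proteins, which spread from the telomere and keep nearby genes low, and the same proteins silence *HML* and *HMR*, the spare copies of the mating-type genes. Subtelomeres also hold gene families that occur in near-identical copies on many ends, such as the Y' element helicases next to the telomere repeats, the *PAU* seripauperins and the maltose genes. Many of these families serve growth on other carbon, sulfur or vitamin sources and are low in rich medium.

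Depth recovered from the whole-read steps of the table was 8774262 to 18078761 reads per library. A gene of 1 kb at the limit that 3 reads set would stand at 0.166 to 0.342 RPKM, a limit that covers counting error only. *HXK1*, the hexokinase that acts with other carbon sources than glucose, was the highest gene of the set at 464 to 1461.7 RPKM, and *ADH6*, *FET4*, *ERG13*, *HYR1*, *ERO1*, *MSC1*, *YHR214C-B* and *YHR214C-C* also averaged over 100 RPKM. At the other end, 113 genes averaged under 10 RPKM, 22 never reached 1 RPKM, and *YIL174W*, *YNR075C-A* and *YOL166W-A* were listed at 0 in all 12 replicates. Tests were run on log2(RPKM + 1) with limma, with adjustment over all 6727 genes that reached 1 RPKM in at least 2 replicates, at an adjusted p under 0.05. That left 201 genes of the set to test and 23 untested. This scale understates the change of low genes. In bulk RNA, fewer cells that express a gene and less RNA per cell cannot be told apart.

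Genes near the ends were low in every group. Their median was 12.9 and 13.1 RPKM in serine, 11.8 and 12.9 in control, 9.43 and 8.34 in CK2, 5.87 and 7.07 in H3T11A, 8.18 and 7.76 in YBL574, and 6.92 and 7.64 in WT. The median over all matched genes lay between 26.7 and 42.0 RPKM in the same replicates, so the typical gene near an end stood at percentile 8.9 to 17.0 of all genes. Between 8.04% and 18.8% of the set had at most 3 reads in a replicate, against 1.54% to 3.83% of all matched genes.

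The levels did not fall steadily towards the end. The 56 genes from 5 to 10 kb were the lowest class in all 12 replicates, at medians of 2.49 to 5.15 RPKM. The 49 genes under 5 kb, 12 of them Y' element helicases, had medians of 8.65 to 19.1 RPKM. The 63 genes from 10 to 15 kb stood at 5.76 to 13.3 RPKM and the 56 genes from 15 to 20 kb at 6.58 to 25.3 RPKM, while the 5860 genes farther in stood at 27.8 to 43.6 RPKM. The gene just inside the limit, *HXT12* at 19.85 kb, averaged 1.3 RPKM, and the one just outside it, *YMR315W-A* at 20.04 kb, averaged 10.3 RPKM.

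**Figure D1:**
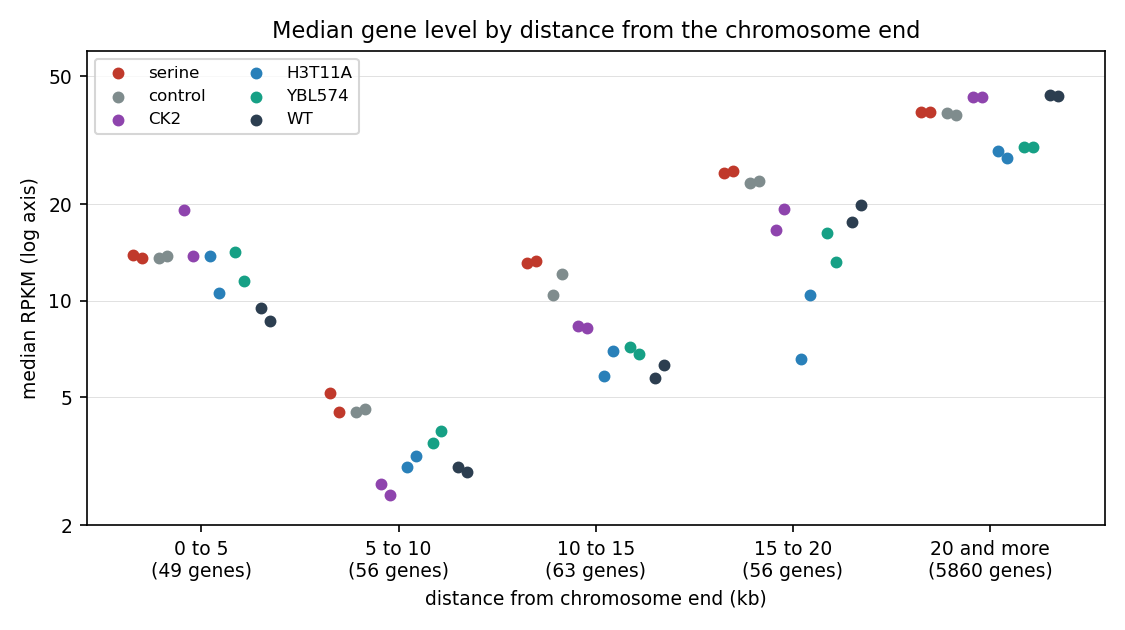
Median RPKM (log axis) of genes in 5 classes of distance from the chromosome end (kb), with a point for each of the 2 replicates of the 6 groups. In all 12 replicates the class from 5 to 10 kb is lowest, at 2.49 to 5.15 RPKM, and the genes at 20 kb and more are highest, at 27.8 to 43.6 RPKM.

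Few genes near the ends differed between serine and control. The question was which of them responded to serine. *FDH1*, a formate dehydrogenase, and *MAL33*, a regulator of the maltose genes, were higher, and *GIT1*, which imports glycerophosphoinositol, was lower. These 2 higher and 1 lower genes of 201 stand beside 0.714% of all 6727 tested genes called higher and 0.624% called lower. At an unadjusted p under 0.05, 15 of the 201 were higher and 20 lower, and the median difference of the 201 was 0.05, against 0.004 over all genes.

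*FDH1* (chromosome XV, 1071793 to 1072923) was read at 6.22 and 3.72 RPKM in serine and at 1.04 and 1.58 RPKM in control. The difference was 1.35 ± 0.23 (SE) on the log2(RPKM + 1) scale, with a limma adjusted p of 0.0316, and both serine replicates lay above both control replicates. Its paralog *FDH2* (chromosome XVI, 18369 to 19079), at 3.34 and 2.05 RPKM against 0.946 and 1.08 RPKM, showed no overlap either but missed the threshold (0.85, adjusted p = 0.088). *MAL33* (chromosome II, 800523 to 801929) stood at 16.7 and 17.5 RPKM in serine, against 8.37 and 11 RPKM in control, a difference of 0.78 ± 0.14 (adjusted p = 0.0415). *MAL31*, the maltose permease next to it, had 20.3 and 21.7 RPKM in serine and 21.4 and 21.6 RPKM in control, which overlap. *GIT1* (chromosome III, 297049 to 298605) had 107 and 108 RPKM in serine, against 229 and 220 RPKM in control, and fell by 1.05 on the log2 scale (SE 0.17, adjusted p = 0.024). For *FDH1*, *MAL33* and *GIT1* the groups did not overlap, as selection by the test favours.

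These 3 calls were not firm. Each was lost when one replicate was left out, with the adjusted p reaching 0.257 for *FDH1* without control replicate 2, 0.294 for *MAL33* without control replicate 2 and 0.212 for *GIT1* without control replicate 2. Leaving out control replicate 3 or serine replicate 2 also ended each of the 3 calls, and leaving out serine replicate 3 ended those of *MAL33* and *GIT1*.

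The 3 genes next to *GIT1* towards the right end of chromosome III had lower values in serine that did not pass the test. *YCR099C* had 34.5 and 30.4 RPKM in serine, against 59.6 and 61.5 RPKM in control (-0.88, adjusted p = 0.0517). *EMA35* had 22.2 and 29.3 RPKM, against 48.9 and 54.6 RPKM (-0.99, adjusted p = 0.088). *YCR101C* had 20.2 and 21.8 RPKM, against 36.6 and 40.5 RPKM (-0.85, adjusted p = 0.175). None of the 3 overlapped between the groups, which with 2 replicates per group can easily arise by chance. The median over the 9 tested genes of this end was -0.58, the lowest of the 29 ends with at least 4 tested genes, and toward the telomere *AAD3* and *RDS1* had differences of 0.28 and 0.24. It was -0.33 without control replicate 2, where the left end of chromosome XVI was lowest at -0.40. The highest end was the right end of chromosome II, with *MAL33*, at a median of 0.17, but it stood at 0.03 without control replicate 3 and at 0.01 without serine replicate 2, and the right end of chromosome XI was then highest.

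The larger families gave no call in serine. The 14 Y' helicases had differences of 0.07 to 0.19 and the 19 seripauperins -0.65 to 0.52, with 0 calls by limma, 0 genes at an unadjusted p under 0.05 and 0 calls by voom in both families. The 3 *ERR* genes, which code for enolase-related proteins, had values of -0.65, -0.70 and -0.81 and none passed in limma (0 of 3, also by voom, with 3 lower at an unadjusted p under 0.05).

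In CK2 all 14 Y' element helicases were higher than in WT, as they also were in control, and more genes of the set rose than fell. The question was which genes near the ends changed in the mutant group labelled CK2, compared with WT. *HMLALPHA1*, a regulator of α-specific genes in the silent cassette *HML*, rose most, but its reads cannot be told apart from those of *MATALPHA1*. The 3 *ERR* genes and the 3 related chaperones *HSP32*, *HSP33* and *SNO4* fell. In all, 48 of 201 genes (23.9%) were called higher and 20 (9.95%) lower, beside 16.4% and 14.6% of all tested genes. In each of these 68 genes the CK2 and WT replicates did not overlap, which selection by the test favours, so it adds no support to the calls. The median difference was 0.11 over the 201 genes and 0.009 over all tested genes. With upper-quartile scaling the counts were 54 higher and 13 lower, and with any 1 of the 4 replicates left out there were 33 to 42 higher and 10 to 12 lower.

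*HMLALPHA1* (chromosome III, 13282 to 13809) stood at 16.5 and 17.0 RPKM in CK2, against 0.311 and 0.153 RPKM in WT. The difference was 3.85 ± 0.14 (limma adjusted p = 4.27e-07). In recovered reads this was 240 in CK2 and 3 in WT, a depth-scaled ratio of 72.3 with an exact 95% interval of 24.4 to 353 that covers counting error only. *HMLALPHA2*, which codes for the repressor of a-specific genes and lies on the other side of the shared promoter (chromosome III, 12386 to 13018), had 53.8 and 56.4 RPKM in CK2, against 31.3 and 24.6 RPKM in WT (0.97 ± 0.14, adjusted p = 0.00129). Neither gene overlapped between the groups, as selection by the test favours. Both have near-identical copies, so reads of *HMLALPHA2* may be shared with *MATALPHA2*. *MATALPHA2* had 50.5 and 53.2 RPKM in CK2, against 28.8 and 29.3 RPKM in WT.

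The mating-type genes outside the set moved with this result. *MATALPHA1*, whose protein is identical to that of *HMLALPHA1* so that reads of the pair cannot be told apart, had 17.8 and 21.6 RPKM in CK2, against 0.934 and 0.307 RPKM in WT. *STE3*, the receptor that α cells use, had 46.4 and 52.2 RPKM in CK2, against 4.83 and 7.74 RPKM in WT. *STE2*, the receptor of a cells, had 8.15 and 7.29 RPKM in CK2, against 245 and 237 RPKM in WT, and *HMRA1* had 0 and 0.4 RPKM, against 187 and 193 RPKM. CK2 and WT therefore differed in mating-type markers, with the α pattern in CK2 and the a pattern in WT. The part of this difference in the *HMLALPHA1* result was not tested. Both *HML* and *HMR* are spare copies of mating-type genes, and the reads do not show that either was itself expressed. Across the 6 groups *HMLALPHA1* took 2 levels. It lay at 17.5 and 16.3 RPKM in serine and 15.3 and 14.7 RPKM in control, as high as in CK2. In H3T11A it lay at 0.31 and 0.108 RPKM, and in YBL574 at 0.519 and 0.449 RPKM, near WT. *HMLALPHA2* was lower in H3T11A (13.7 and 16.2 RPKM) than in YBL574 (19.7 and 23.6 RPKM), at -0.50 (adjusted p = 0.0204), a call lost without YBL574 replicate 3 (0.134) or H3T11A replicate 1 (0.0559). *MATALPHA2* had 14.0 and 16.8 RPKM in H3T11A, against 19.9 and 22.6 RPKM in YBL574, so the *HMLALPHA2* call need not come from *HML*. *STE3*, like *HMLALPHA1*, differed between groups, at 39.2 to 47.0 RPKM in serine and control and at 2.7 to 4.08 RPKM in H3T11A and YBL574. *STE2* was at 2.93 to 3.42 RPKM in serine and control and at 377 to 515 RPKM in H3T11A and YBL574. The groups with high *HMLALPHA1* were those with the α pattern of these receptors.

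The start of *HMLALPHA1* is shown because this gene had the largest rise in CK2. The window runs from 250 bases before to 50 bases after the start of the coding sequence, read from R64 at chrIII:13032-13331 on the plus strand. Capitals mark matches to TGAAACA, the site of the pheromone-response factor Ste12, read on either strand.
HMLALPHA1: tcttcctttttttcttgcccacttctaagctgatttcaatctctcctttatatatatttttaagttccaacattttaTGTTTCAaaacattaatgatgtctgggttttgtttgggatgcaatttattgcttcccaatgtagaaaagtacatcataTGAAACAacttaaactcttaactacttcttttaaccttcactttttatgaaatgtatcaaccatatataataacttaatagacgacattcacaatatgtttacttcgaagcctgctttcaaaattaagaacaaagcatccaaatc
This window held 2 such matches. Of 5987 windows of the same length over all genes, 7.52% held at least 1 match on either strand, and 6.6% of the 212 windows of the set that were searched did. The other 6 motifs searched, none of which contains another, were not found in it: TCGTATA (Upc2), TGCACCC (Aft1), AGGGG (the stress response element), TGACTCA (Gcn4), TTACTAA (Yap1) and TTACCCG (Reb1). Over all genes they occurred in 4.14%, 1.29%, 21.6%, 2.74%, 7.45% and 7.1% of the windows in that order.

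The Y' element helicases lie within the last kilobases of the chromosomes, and 13 of the 14 copies were near-identical. Their median level was 29.3 and 24.3 RPKM in CK2 and 15.7 and 13.6 RPKM in WT. It was 23.4 and 24.5 RPKM in control and 26.1 and 26.5 RPKM in serine, so the higher level was not particular to CK2. All 14 were called higher, by 0.61 to 1.08, with a median of 0.92, against a median of 0.009 over all tested genes. With one replicate left out 11 to 14 of them passed. *YRF1-4* (chromosome XII, 1067087 to 1071235) had 34.4 and 31.5 RPKM in CK2, against 17.0 and 13.4 RPKM in WT (1.08 ± 0.17, adjusted p = 0.00178). *YRF1-5*, on the same end at 0.3 kb from the telomere, had 28.2 and 23.5 RPKM, against 14.0 and 11.5 RPKM (0.97 ± 0.16, adjusted p = 0.00225). *YPR204W*, the copy with the highest mean level, had 37.1 and 31.1 RPKM, against 19.1 and 15.6 RPKM (0.94). The copies moved closely together, and their reads may be shared.

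Rises were most common next to the telomere. Under 5 kb, 21 of 39 tested genes (53.8%) were higher and 1 lower, with a median of 0.80. Without the Y' helicases 9 of the other 27 were higher and 1 lower, with a median of 0.27. These 27 are not free of Y' sequence, since they still hold *YBL112C*, higher by 1.24. The count of 21 fell to 13 without CK2 replicate 2, to 14 without WT replicate 2 and to 14 without WT replicate 3, and was 22 without CK2 replicate 3. Over all tested genes 16.4% were called higher and 14.6% lower. From 5 to 10 kb 9 genes (17.6%) were higher and 7 (13.7%) lower of 51. From 10 to 15 kb 14 (25.0%) were higher and 4 (7.14%) lower of 56, and from 15 to 20 kb 4 (7.27%) and 8 (14.5%) of 55. These counts also moved with single replicates. From 10 to 15 kb 8 were higher without CK2 replicate 2 and 9 without WT replicate 3. Without CK2 replicate 3, WT replicate 2 or WT replicate 3, 4 were lower from 5 to 10 kb and 2 from 10 to 15 kb. From 15 to 20 kb 5 were lower without CK2 replicate 3, and 3 without each of the other replicates. Of the 91 tested genes with a near-identical copy 28 were higher and 10 lower (median 0.37), and of the 110 without one 20 were higher and 10 lower (median 0.01).

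**Figure D2:**
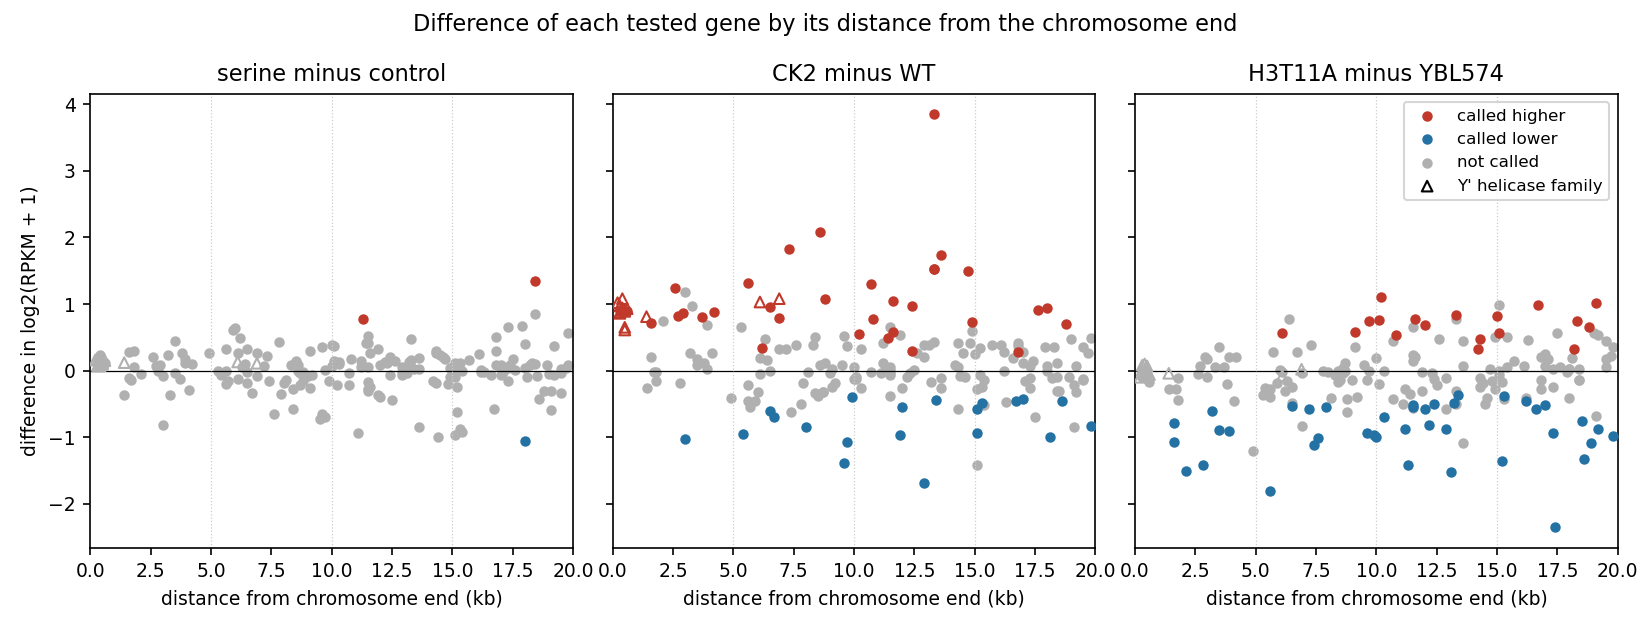
Difference in log2(RPKM + 1) of each of 201 genes (vertical axis) against its distance from the chromosome end in kb, for serine minus control, CK2 minus WT and H3T11A minus YBL574. Red and blue points passed the limma test as higher and lower, grey points did not, and open triangles are the 14 Y' helicases, which sit between 0.61 and 1.08 in CK2 minus WT and between -0.1 and 0.1 in H3T11A minus YBL574.

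Other genes rose in CK2 at single ends. *YAR066W*, a putative cell-surface protein (chromosome I, 221049 to 221660), had 10.1 and 11 RPKM in CK2, against 1.75 and 1.72 RPKM in WT (2.08 ± 0.18, adjusted p = 0.000125). Its neighbour *YAR068W* had 10.9 and 14.1 RPKM, against 2.2 and 3.5 RPKM (1.82 ± 0.25, adjusted p = 0.00105). These were the only 2 tested genes of the right end of chromosome I. The uncharacterized *YMR317W* had 4.56 and 3.98 RPKM, against 0.504 and 0.662 RPKM (1.74 ± 0.21, adjusted p = 0.0005). *PHO89*, a sodium and phosphate symporter, had 10.5 and 12.2 RPKM, against 3.48 and 3.33 RPKM (1.49 ± 0.19, adjusted p = 0.000694). None of these 4 genes overlapped between the groups, as selection by the test favours.

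The Ty1 frames *YHR214C-B* and *YHR214C-C*, which share a start on the right end of chromosome VIII, were among the most abundant RNAs of the set. *YHR214C-C*, the Gag frame, had 1061.7 and 1280.5 RPKM in CK2, against 373 and 437 RPKM in WT (1.53 ± 0.27, adjusted p = 0.00322). *YHR214C-B*, the Gag-Pol frame, had 999 and 1157.5 RPKM, against 344 and 403 RPKM (1.53 ± 0.28, adjusted p = 0.00383). Ty1 is present in many copies, so these reads need not come from this end. *YLR464W* and *YBL112C*, which lie in Y' sequence, were higher by 1.30 and 1.24. *YLL066W-B* had 7 reads over the CK2 replicates and 0 over the WT replicates, which made it at least 2.12-fold higher against a floor of 3 reads over the group, and its call was lost without CK2 replicate 3 (adjusted p = 0.0848), WT replicate 2 (0.0665) or WT replicate 3 (0.0601).

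The strongest fall in CK2 was that of *YNR071C*, which codes for a putative aldose epimerase (chromosome XIV, 770440 to 771468), at 1.46 and 0.74 RPKM, against 5.11 and 6.29 RPKM in WT (-1.69 ± 0.22, adjusted p = 0.000719). *ERR2* (chromosome XVI, 9557 to 10870) had 4.45 and 3.07 RPKM, against 11.1 and 11.4 RPKM (-1.38). *ERR1* and *ERR3* fell by 1.07 and 1.03. All 3 members of this family were called with each replicate left out. The chaperones *HSP32*, *HSP33* and *SNO4*, which belong to a family of methylglyoxal-degrading proteins, were called lower at -0.97, -0.54 and -0.95, but only 1 or 2 of them passed with a replicate left out, and without WT replicate 3 it was 1. *HXK1* had 756 and 728 RPKM in CK2, against 1375.1 and 1461.7 RPKM in WT (-0.93 ± 0.18, adjusted p = 0.0052), the largest fall in RPKM. *NRE1*, a reductase gene, had 33.5 and 37.9 RPKM, against 70.3 and 73.3 RPKM (-0.99 ± 0.10, adjusted p = 0.000173).

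*MAN2*, a mannitol dehydrogenase, and *YPR195C* were lower by -0.84 and -0.83 and lost their calls in each of the 4 fits that left out a replicate, at adjusted p of 0.0513 to 0.0843 for *MAN2* and 0.0692 to 0.198 for *YPR195C*. *HSP32* lost its call without CK2 replicate 2 (0.0513) or WT replicate 3 (0.0556). By end, the right end of chromosome XII had the highest median among ends with at least 4 tested genes, 0.97, where *YRF1-5*, *YRF1-4*, *YLR464W* and *YLR462W* were called higher of 7 tested genes. The right end of chromosome VIII, with the Ty1 frames, had a median of 0.90. It was the highest end without CK2 replicate 2 (0.80, against 0.63 on the right end of XII) and without WT replicate 3 (0.84, against 0.83). *YLR462W* lost its call without CK2 replicate 2 (0.197), WT replicate 2 (0.0602) or WT replicate 3 (0.165). The right end of chromosome IX, with *NRE1* and *IRC24* called lower, had the lowest, -0.45, but the right end of chromosome XIII was lowest without CK2 replicate 3 (-0.58) or WT replicate 3 (-0.42). *IRC24* lost its call with each of the 4 replicates left out (0.118 to 0.191).

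**Figure D3:**
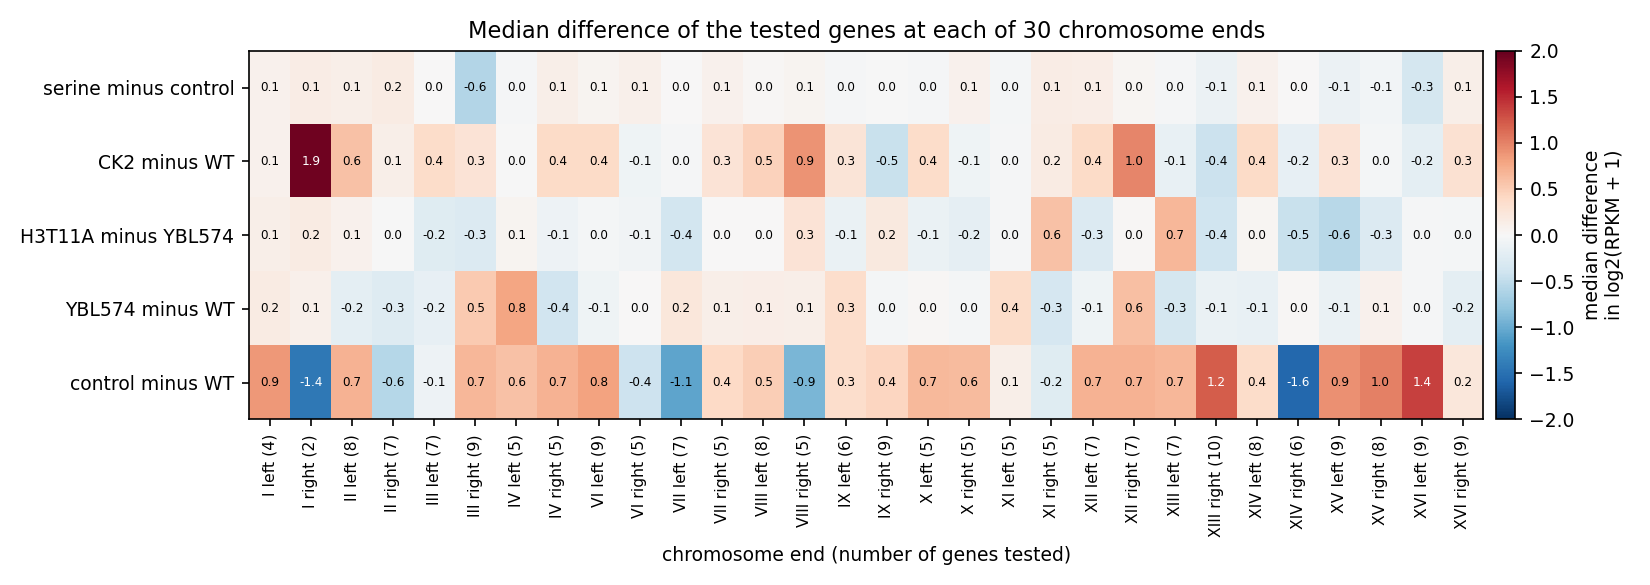
Median difference in log2(RPKM + 1) of the tested genes (colour and printed value) at each of 30 chromosome ends, in columns with the number of genes tested, for the 5 comparisons in rows. The right end of chromosome XII stands at 0.97 for CK2 minus WT, the left end of XV at -0.56 for H3T11A minus YBL574, and the right end of XIV at -1.57 for control minus WT.

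In H3T11A more genes near the ends were lower than higher. The comparison asks how the H3T11A mutant differed from YBL574, its counterpart with unchanged H3. *SRY1*, which codes for 3-hydroxyaspartate dehydratase, *AIF1*, the yeast homolog of the apoptosis-inducing factor, *MAL33* and the seripauperins *PAU18* and *PAU6* were lower. *YML131W*, *ERG13* and *PCA1* were higher. In all, 40 of 201 genes (19.9%) were called lower and 18 (8.96%) higher, beside 21.6% and 19.1% of all tested genes. The share of lower genes was thus near that of all genes, and the share of higher genes was below it. The groups did not overlap in any of these 58 genes, which selection by the test favours, so it adds no support to the calls. The median difference was -0.08 over the 201 genes and -0.061 over all tested genes.

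The counts of this comparison moved with the fit, the scaling and single replicates. Fitted on these 2 groups alone, 9 genes were lower and 0 higher by limma, with 40 lower and 17 higher at an unadjusted p under 0.05. Upper-quartile scaling gave 35 lower and 25 higher, and limma voom on recovered reads 80 lower and 9 higher, where the median of all genes was -0.407. With one replicate left out there were 24 to 51 lower and 11 to 32 higher. There were 24 lower without YBL574 replicate 2, 11 higher without YBL574 replicate 3 and 32 higher without H3T11A replicate 1. The H3T11A replicates also differed most: the SD of their log2 differences over the set was 0.50, against 0.24 to 0.34 in the other groups, and 12 genes differed by more than 1.

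*SRY1* (chromosome XI, 17359 to 18339) stood at 5.84 and 7.7 RPKM in H3T11A and at 44.1 and 33.2 RPKM in YBL574, a difference of -2.35 ± 0.16 (limma adjusted p = 3.33e-05). The 4 other groups lay between 27.4 and 33.2 RPKM, so only H3T11A was low. *AIF1* (chromosome XIV, 777602 to 778738) had 6.04 and 6.79 RPKM in H3T11A, against 25.5 and 24.1 RPKM in YBL574 (-1.80 ± 0.11, adjusted p = 2.14e-05). *AIF1* was at 0 in serine and control and at 20.4 to 25.4 RPKM in CK2 and WT. Their starts are shown because these were the 2 genes that fell most in H3T11A. *SRY1* was read from R64 at chrXI:18290-18589 and *AIF1* at chrXIV:778689-778988, both on the minus strand, from 250 bases before to 50 bases after the start. Capitals mark a match, on the other strand, to TTACTAA, the site of the stress factor Yap1.
SRY1: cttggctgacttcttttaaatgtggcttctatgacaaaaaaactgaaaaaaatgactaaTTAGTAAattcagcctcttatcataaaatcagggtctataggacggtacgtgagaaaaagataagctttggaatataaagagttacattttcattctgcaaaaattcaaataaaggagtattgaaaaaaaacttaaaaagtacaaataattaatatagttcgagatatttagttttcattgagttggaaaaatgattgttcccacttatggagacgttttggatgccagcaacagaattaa
AIF1: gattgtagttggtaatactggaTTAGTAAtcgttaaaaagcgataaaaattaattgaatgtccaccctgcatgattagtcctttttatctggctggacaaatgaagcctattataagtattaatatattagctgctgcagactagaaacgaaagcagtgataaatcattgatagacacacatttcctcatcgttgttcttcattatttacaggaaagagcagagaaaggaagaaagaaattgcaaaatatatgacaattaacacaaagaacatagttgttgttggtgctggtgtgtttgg
Each window held 1 match. Over all genes 7.45% of the windows held one, and 5.66% of those of the set. A match is a run of letters only, and binding was not measured.

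*MAL33* had 6.92 and 5.91 RPKM in H3T11A, against 20.7 and 16.7 RPKM in YBL574 (-1.41 ± 0.14, adjusted p = 0.00022). The maltose and isomaltose genes did not move as a group, with 2 of 10 higher (*MAL11* and *MAL32*) and 2 lower (*MAL33* and *MAL13*). None was higher without H3T11A replicate 3, YBL574 replicate 2 or YBL574 replicate 3, where adjusted p was 0.0544 to 0.0842 for *MAL11* and 0.0951 to 0.186 for *MAL32*, and *MAL13* lost its call without YBL574 replicate 2 (0.0874). *DIA1*, which acts in invasive growth, had 14.0 and 13.5 RPKM, against 34.3 and 37.4 RPKM (-1.32 ± 0.12, adjusted p = 0.000136). The short frame *YOL159C-A* had 5.36 and 6.05 RPKM, against 18.5 and 14.2 RPKM (-1.36 ± 0.14, adjusted p = 0.000196). *COS12*, of a family of endosomal sorting proteins, had 3.99 and 2.77 RPKM, against 9.43 and 11.9 RPKM (-1.42 ± 0.28, adjusted p = 0.00451). *YMR320W* and *YJR154W* were lower by -1.11 and -1.08, and *YMR320W* lost its call without YBL574 replicate 2 (-0.89, adjusted p = 0.116). All of these were separated between the 2 groups, as selection by the test favours. *DIA1* and *YOL159C-A* were also lower in H3T11A than in each of the other 5 groups.

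The seripauperins, cell wall proteins made in anaerobic or cold conditions, had 4 of 19 called lower. This share of 21.1% was near the 21.6% of all tested genes called lower. *PAU18* had 1.21 and 2.07 RPKM in H3T11A, against 6.66 and 6.25 RPKM in YBL574 (-1.52), and *PAU6* 0.889 and 2.79 RPKM, against 6.89 and 6.26 RPKM (-1.50). *PAU9* and *PAU22* were the others. The family median was -0.40, against -0.061 over all tested genes. Leaving out YBL574 replicate 2 or 3 reduced the 4 calls to 2 in each case, *PAU9* also lost its call without H3T11A replicate 3 (0.131), and *PAU22* without H3T11A replicate 1 (0.105). Of the 8 genes of vitamin B1 and B6 synthesis 3 were lower, *SNO2*, *SNO3* and *THI11*, and 2 without YBL574 replicate 2 or without YBL574 replicate 3. Of the 4 genes of amino acid and peptide transport 3 were lower. These were *MHT1*, a methyltransferase that uses S-methylmethionine, *AGP3* and *SEO1*, and only 1 passed without H3T11A replicate 1 or without YBL574 replicate 2. *AGP3* had adjusted p of 0.0609 and 0.149 in those fits. *MHT1* had 2.8 and 3.33 RPKM in H3T11A, against 4.95 and 5.09 RPKM in YBL574 (-0.57 ± 0.11, adjusted p = 0.00494). The 14 Y' helicases gave no call, at -0.10 to 0.10 (0 by limma, 0 at an unadjusted p under 0.05 and 0 higher with voom, where 2 were lower).

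*YML131W*, a putative oxidoreductase (chromosome XIII, 10198 to 11295), had 35.1 and 49 RPKM in H3T11A, against 18.9 and 18.5 RPKM in YBL574 (1.11 ± 0.15, adjusted p = 0.000791). *ERG13*, the HMG-CoA synthase of sterol synthesis on the same end, had 289 and 383 RPKM, against 166 and 162 RPKM (1.02 ± 0.13, adjusted p = 0.000504). *PCA1*, a cadmium-exporting ATPase, had 25.9 and 21.0 RPKM, against 11.3 and 11.2 RPKM (0.99 ± 0.12, adjusted p = 0.0004). None of these 3 genes overlapped between the groups, as selection by the test favours. *PDR18*, a drug and sterol transporter, had 3.41 and 3.4 RPKM, against 1.5 and 1.51 RPKM (0.82 ± 0.18, adjusted p = 0.00744). *NFT1*, a vacuolar transporter of the same ABC class, had 13.7 and 14.2 RPKM, against 7.89 and 7.76 RPKM (0.76). *FDC1*, a ferulic acid decarboxylase, was higher by 0.75, *YAL065C* by 0.77 and *YAL064W-B* by 0.68. *YAL065C* lost its call without YBL574 replicate 2 (0.0584) and *YAL064W-B* without YBL574 replicate 3 (0.0551). *VBA3*, a vacuolar amino acid permease, and the Gag frame *YHR214C-C* were higher by 0.74 and 0.84, but *VBA3* lost its call without H3T11A replicate 3 (0.131), YBL574 replicate 2 (0.0965) or YBL574 replicate 3 (0.0782), and *YHR214C-C* without H3T11A replicate 3 (0.156) or YBL574 replicate 3 (0.221).

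A panel of genes near the ends was also assayed by qRT-PCR. The set holds 5 genes of that panel, which was picked in the original work and is no independent evidence of a direction. By qRT-PCR the paper reports *YFR057W*, *RDS1*, *SOR1* and *SEO1* as increased in H3T11A. It also reports *SOR1* and *SEO1* as repressed by serine, and it shows *IRC7* in *sam1Δ* and *shm2Δ* mutants. In the RNA-seq values, 2 of the 4 that could be tested were lower in H3T11A, against the direction reported by qRT-PCR. The reason for this was not tested. *RDS1* (YCR106W), a transcription factor gene 3.2 kb from its end, had 14.3 and 10 RPKM in H3T11A, against 19.4 and 18.0 RPKM in YBL574 (-0.60 ± 0.14, adjusted p = 0.0085), and lost its call without YBL574 replicate 2 (0.0568). *SEO1*, a putative permease gene, had 1.03 and 1.02 RPKM, against 2.22 and 1.8 RPKM (-0.57 ± 0.17, adjusted p = 0.0301), and lost its call with each of the 4 replicates left out (0.0517 to 0.157). *IRC7*, a cysteine desulfhydrase gene, had 100 and 30 RPKM, against 135 and 120 RPKM (-1.20 ± 0.43, adjusted p = 0.0528), with a wide gap between its H3T11A replicates. *SOR1*, a sorbitol dehydrogenase gene, had 7.43 and 10.4 RPKM, against 8.17 and 8.86 RPKM, which overlap. *YFR057W*, 0.6 kb from its end, stayed under the filter at 0.544 and 0.505 RPKM, against 0.847 and 0.644 RPKM, and was not tested. None of the 4 tested genes was called in CK2 against WT or in serine against control.

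By distance, the calls of H3T11A showed no rise at the telomere. The lower shares of the 4 distance classes were 17.6% to 21.8%, near the 21.6% of all tested genes. The higher shares were 0% to 16.1%, beside 19.1% of all tested genes. Under 5 kb, 7 of 39 tested genes (17.9%) were lower, namely *RDS1*, *AAD15*, *GEX2*, *YIR042C*, *AAD3*, *COS12* and *PAU6*. None was higher by limma, with 1 at an unadjusted p under 0.05 and 0 with voom, and 1 was higher without H3T11A replicate 1 or without H3T11A replicate 3. From 5 to 10 kb 9 were lower and 3 higher of 51, from 10 to 15 kb 12 and 9 of 56, and from 15 to 20 kb 12 and 6 of 55. Without YBL574 replicate 2 the lower genes of these classes were 5, 7 and 7. From 5 to 10 kb 5 were also lower without YBL574 replicate 3, and 14 without H3T11A replicate 3. The higher genes from 5 to 10 kb were 5 without H3T11A replicate 1, 1 without H3T11A replicate 3 and 0 without YBL574 replicate 3, and from 15 to 20 kb they were 14 without H3T11A replicate 1. By end, the left end of chromosome XV had the lowest median, -0.56, with all 9 tested genes below 0 and *AAD15*, *YOL163W*, *YOL159C-A* and *CSS3* called lower. *AAD15* lost its call without YBL574 replicate 2 (0.0571) or 3 (0.0516), and *YOL163W* without YBL574 replicate 3 (0.0534). *DIA1*, *YMR320W* and the iron transporter gene *FET4*, all called lower, lie on the right end of chromosome XIII. The left end of chromosome XIII, with *YML131W* and *ERG13*, had the highest median, 0.66, but it was 0.11 without H3T11A replicate 1 and 0.22 without H3T11A replicate 3. In both of these fits the right end of chromosome XI was highest, at 0.57, against 0.58 with all replicates.

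**Figure D4:**
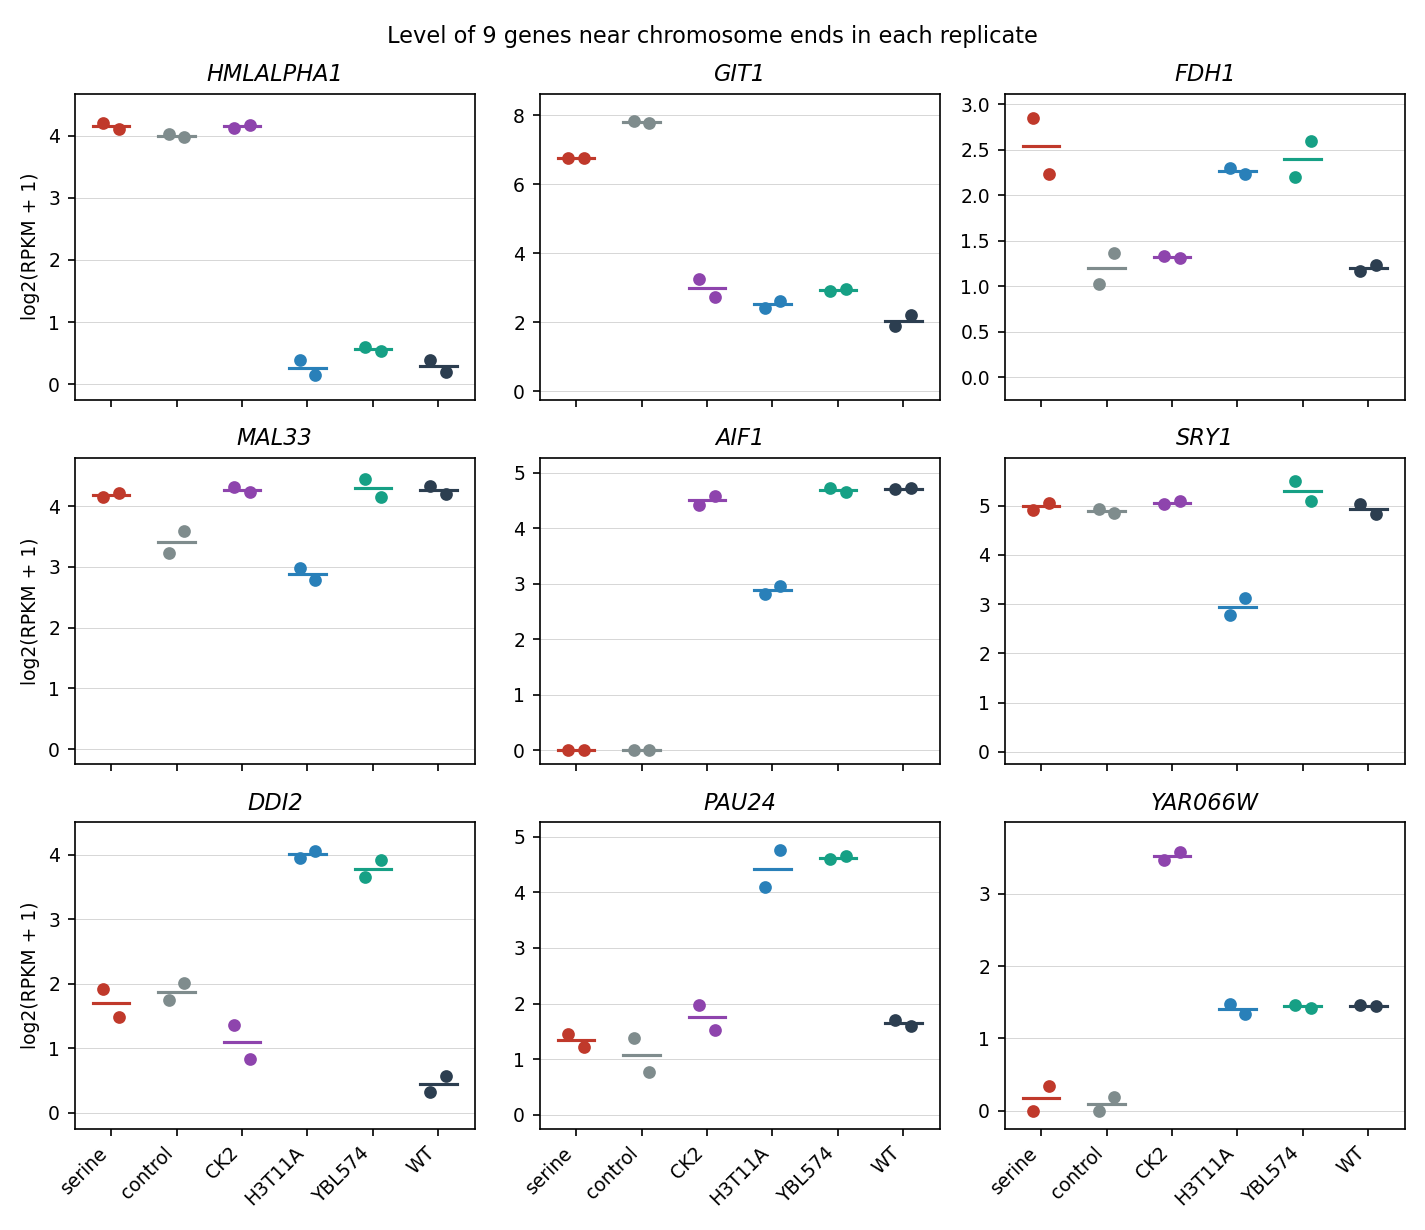
Level of 9 genes, as log2(RPKM + 1), in each of the 2 replicates (points) of the 6 groups, with the group mean as a line. *SRY1* is low in H3T11A alone, *AIF1* is at 0 in serine and control, and *HMLALPHA1* is at 14.7 to 17.5 RPKM in serine, control and CK2 and at 0.108 to 0.519 RPKM in H3T11A, YBL574 and WT.

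YBL574 and WT, which both lack the tested mutations, differed at many ends. The comparison asks how far the plasmid-histone strain alone departs from WT, and it shares YBL574 with the comparison above and WT with that of CK2. *DDI2* and *DDI3*, near-identical cyanamide hydratases, and the seripauperin *PAU24* were higher, and *ERO1*, which forms disulfide bonds in the endoplasmic reticulum, was lower. In all, 47 of 201 genes (23.4%) were called higher and 41 (20.4%) lower, beside 6.42% and 48.4% of all tested genes. The median over all tested genes was itself shifted, to -0.365, while that of the set was 0.01. Upper-quartile scaling moved the median of all genes to 0.066 and the counts to 86 higher and 12 lower, and median-of-ratios scaling to 0.015 with 81 and 15. The direction of small differences in this comparison therefore depends on the scaling. With 1 replicate left out 27 to 34 genes were lower, 27 of them without YBL574 replicate 3.

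*DDI2* (chromosome XIV, 11452 to 12129) had 11.6 and 14.1 RPKM in YBL574, against 0.242 and 0.478 RPKM in WT, a difference of 3.34 ± 0.23 (limma adjusted p = 4.49e-05), or 3.71 above the median of all genes. *DDI3* on chromosome VI followed it at 13.1 and 14.0 RPKM, against 0.485 and 0.836 RPKM (3.14). In H3T11A the pair stood at 14.2 to 15.7 RPKM, so both plasmid-histone strains were high. *PAU24* (chromosome II, 809057 to 809419) had 23.2 and 24.0 RPKM in YBL574, against 2.26 and 2.01 RPKM in WT (2.97 ± 0.27, adjusted p = 9.15e-05), and 16 and 26.1 RPKM in H3T11A. *SOR1* had 8.17 and 8.86 RPKM, against 1.68 and 1.21 RPKM (1.97 ± 0.19, adjusted p = 0.000116). *PAU1* had 76 reads over the YBL574 replicates and 2 over the WT replicates, a depth-scaled ratio of 15.9 with an interval of 4.25 to 134. *ERO1* had 73.6 and 67.7 RPKM in YBL574, against 201 and 212 RPKM in WT (-1.53 ± 0.28, adjusted p = 0.0017), or -1.17 relative to the median of all genes. *YPL278C*, *YOR389W* and *HSP32* were lower by -1.38, -1.29 and -1.32. *MSC1* was lower by -1.40 and lost its call with each of the 4 replicates left out (0.0846 to 0.132).

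Several families differed as well, where 6.42% of all tested genes were called higher and 48.4% lower. All 19 seripauperins and all 8 vitamin B1 and B6 genes have near-identical copies, so their calls need not be separate results. Of 19 seripauperins 12 were higher, with a median of 0.83, and 7 without YBL574 replicate 2. Their median level was 3.39 and 2.88 RPKM in YBL574 and 1.16 and 1.11 RPKM in WT. All 3 tested hexose transporters were higher, at a median of 1.19. Of the vitamin B1 and B6 genes, 4 thiamine genes (*THI5*, *THI11*, *THI12*, *THI13*) were higher and *SNO2* and *SNO3* were lower. *THI5* had 7.06 and 8.94 RPKM in YBL574, against 1.69 and 2.37 RPKM in WT (1.57 ± 0.23, adjusted p = 0.000628). *SNO2* had 11.3 and 12.9 RPKM, against 20 and 22.4 RPKM (-0.76 ± 0.14, adjusted p = 0.0019). The 14 Y' helicases gave 0 calls by limma, with 0 higher and 1 lower at an unadjusted p under 0.05 and 0 by voom, while upper-quartile scaling called 9 of them higher. *ARR1* and *ARR2* of the arsenic resistance cluster were lower by -0.84 and -0.96, while *ARR3* beside them had -0.09 and was not called. The left end of chromosome IV had the highest median, 0.79, with *SOR2*, *THI13* and *AAD4* called higher, and its right end the lowest, -0.38. That end stood at -0.17 without WT replicate 2 and -0.18 without YBL574 replicate 3, and in both of these fits, as without WT replicate 3, the left end of chromosome XIII was lowest (-0.49 to -0.39).

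Between control and WT, both labelled wt, genes near the ends were called higher more often, and lower less often, than all tested genes. The comparison measures how far these 2 wild-type groups lie apart, and it shares control with the serine comparison and WT with those of CK2 and YBL574. *GIT1*, the *ERR* genes, the chaperones and many seripauperins were higher, and 5 neighbours on the right end of chromosome XIV were lower. In all, 92 of 201 genes (45.8%) were called higher and 32 (15.9%) lower, beside 22.1% and 36.9% of all tested genes. The median was 0.48 over the set and -0.173 over all tested genes. Median-of-ratios scaling moved the median of all genes to -0.024 and gave 104 higher and 26 lower.

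*GIT1* had 229 and 220 RPKM in control, against 2.69 and 3.64 RPKM in WT (5.77 ± 0.17, limma adjusted p = 4.57e-08). It lay at 4.31 to 8.48 RPKM in CK2, H3T11A and YBL574, so it was high only in control and serine. Its neighbours *YCR099C*, *EMA35* and *YCR101C* were higher by 2.17, 2.41 and 1.82. *DIA1* had 192 and 191 RPKM in control, against 27.1 and 23.7 RPKM in WT (2.87 ± 0.12, adjusted p = 4.23e-07). The 3 *ERR* genes were higher, at a median of 3.35. *ERR1* (chromosome XV, 1080276 to 1081589) had 111 and 138 RPKM in control, against 9.56 and 10.2 RPKM in WT (3.52 ± 0.21, adjusted p = 2.53e-06). *ERR2*, its copy, had 111 and 139 RPKM, against 11.1 and 11.4 RPKM. The 3 chaperones were higher at a median of 3.00, with *HSP33* at 39.2 and 48.1 RPKM in control, against 3.8 and 3.52 RPKM in WT.

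The seripauperins had 12 of 19 higher and 2 lower in control, with a median of 1.38. *PAU1* (chromosome X, 8776 to 9138) had 166 reads over the control replicates and 2 over the WT replicates, a depth-scaled ratio of 86.1 with an interval of 23.5 to 717. *PAU14* (chromosome IX, 8793 to 9155) had 22.2 and 20.2 RPKM in control, against 0.905 and 0.446 RPKM in WT (3.74 ± 0.32, adjusted p = 1.9e-05). *PAU18* and *PAU6* went the other way, by -2.24 and -1.81. The starts of *PAU1* and *ERR1* are shown because copies that rose together share them. *PAU1* was read from R64 at chrX:9089-9388 on the minus strand and is the same at all 300 bases as the window of *PAU14* at chrIX:9106-9405. *ERR1* was read at chrXV:1080026-1080325 on the plus strand and is the same at all 300 bases as the window of *ERR2* at chrXVI:10821-11120. Neither held a match to any of the 7 motifs.
PAU1: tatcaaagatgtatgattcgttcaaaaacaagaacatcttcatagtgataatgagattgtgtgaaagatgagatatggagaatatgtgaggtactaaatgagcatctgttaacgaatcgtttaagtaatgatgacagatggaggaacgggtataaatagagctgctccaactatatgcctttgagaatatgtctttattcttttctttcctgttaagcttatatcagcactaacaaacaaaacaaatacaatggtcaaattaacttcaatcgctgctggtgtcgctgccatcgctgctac
ERR1: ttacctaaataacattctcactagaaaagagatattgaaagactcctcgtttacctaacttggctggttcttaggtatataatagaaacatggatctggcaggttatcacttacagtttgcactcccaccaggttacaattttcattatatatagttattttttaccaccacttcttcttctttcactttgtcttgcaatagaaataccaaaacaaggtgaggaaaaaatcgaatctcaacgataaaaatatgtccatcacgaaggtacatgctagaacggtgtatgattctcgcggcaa
These copies differ little in their genes too, so that a read of one may have been placed on the other.

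**Figure D5:**
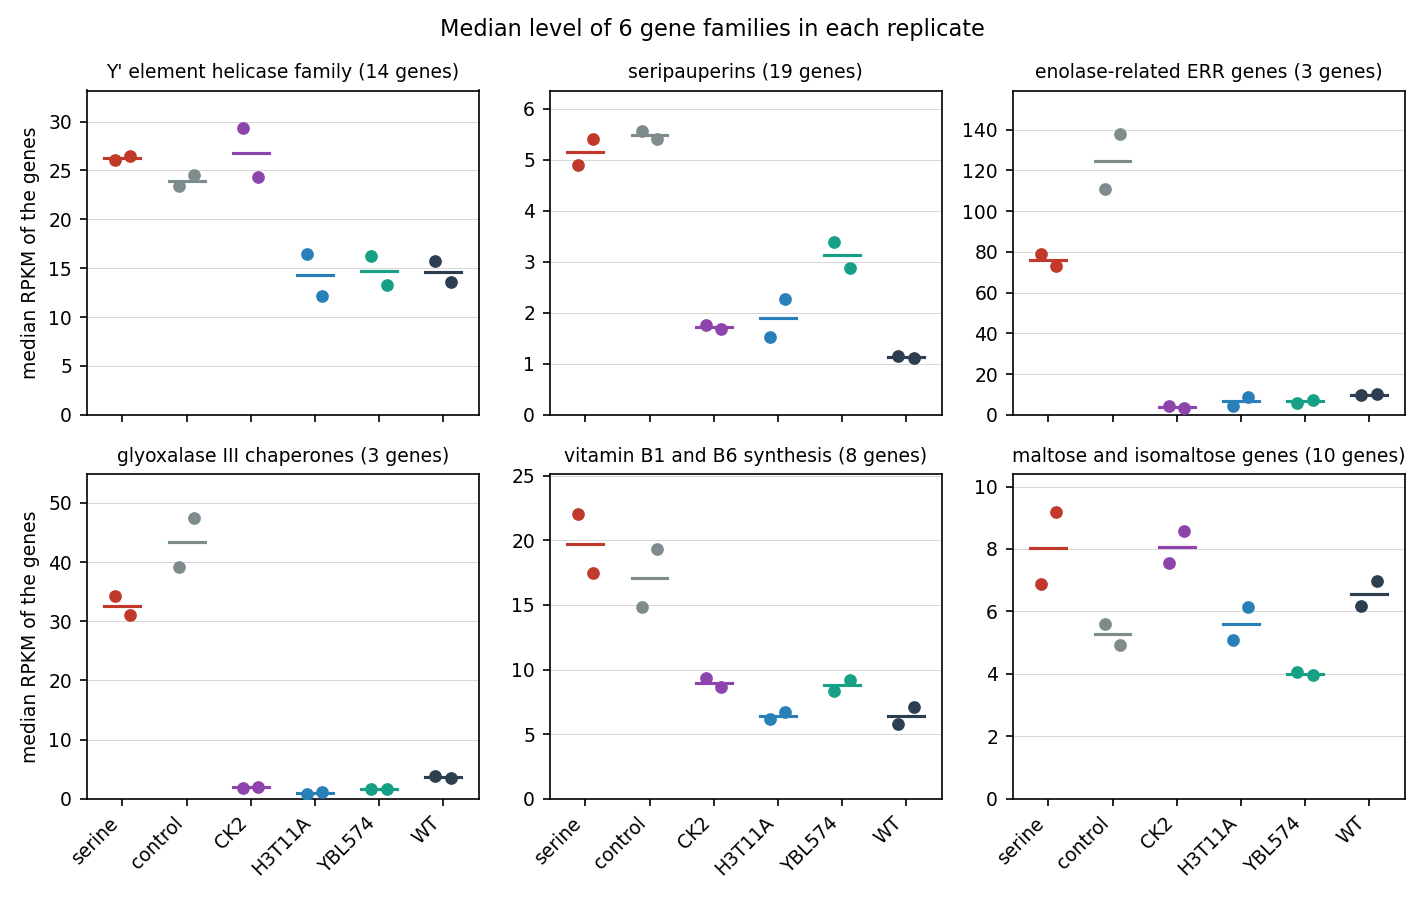
Median RPKM over the genes of 6 families in each of the 2 replicates (points) of the 6 groups, with the mean as a line. The enolase-related *ERR* genes stand at 73.1 to 138 RPKM in serine and control and at 3.07 to 10.2 RPKM in the other groups, and the Y' helicases at 23.4 to 29.3 RPKM in serine, control and CK2 and at 12.1 to 16.4 RPKM in H3T11A, YBL574 and WT.

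All 14 Y' helicases were higher in control than in WT, by 0.54 to 0.83, and 9 of them without WT replicate 3. Of the 8 vitamin B1 and B6 genes 6 were higher. The left end of chromosome XVI had the highest median, 1.37, with 6 of 9 tested genes higher, and was 1.16 without WT replicate 2, against 1.17 on the right end of chromosome XIII. It and the right end of chromosome XV carry copies of the same block: a Y' helicase, a seripauperin (*PAU22*, *PAU21*), *ERR2* or *ERR1*, *HSP32* or *HSP33*, the fluoride exporters *FEX2* or *FEX1*, *YPL278C* with *YPL277C* or *YOR389W*, and *FDH2* or *FDH1*. Within that block the exporters were lower, *FEX2* by -0.71 and *FEX1* by -0.86, between neighbours that were higher. *FEX2* had 11.9 and 12.5 RPKM in control, against 21.4 and 19.6 RPKM in WT.

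The right end of chromosome XIV had the lowest median, -1.57, with 5 of 6 tested genes lower. From the telomere inward these were *PAU6*, *AIF1*, *MAN2*, *YNR071C* and *PDR18*, and *HXT17* among them had -0.31 and was not called. *AIF1* had 0 reads over the control replicates and 703 over the WT replicates, at least 226-fold lower against the floor of 3 reads over the group. *YNR071C* and *PDR18* each had 0 reads in control and 144 in WT, at least 46.2-fold lower. In serine *AIF1* also had 0 reads and *YNR071C* and *PDR18* 1 read each, while CK2, H3T11A and YBL574 had 31 to 1690 reads of these 3 genes. On the left end of chromosome VII *COS12* had 0 reads in control and 99 in WT, at least 31.9-fold lower, and *YGL262W* 0 and 22, at least 7.1-fold lower. *YGL262W* lost its call without WT replicate 2 (-0.55, adjusted p = 0.29), control replicate 2 (0.114) or control replicate 3 (0.116). *YAR066W* had 1 read in control and 26 in WT, a ratio of 25.1 with an interval of 4.12 to 1027.1. *ADH6*, an alcohol dehydrogenase, had 53.3 and 48.1 RPKM in control, against 214 and 191 RPKM in WT (-1.98 ± 0.17, adjusted p = 2.16e-05).

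Over the 5 comparisons, which share groups as said, 171 of the 201 tested genes were called in at least 1 and 30 in none. The same share over all tested genes was not counted, so this does not set the genes near the ends apart. Among all tested genes, 48.4% were called lower in YBL574 against WT alone.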

How the data were processed

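Total RNA was extracted with a column kit and sequenced on Illumina libraries. The authors deposited 1 table of RPKM values per gene for 16 libraries, 12 biological replicates of 6 groups, and the submitters' processing notes name CASAVA 1.8.2, TopHat2 2.0.13, edgeR and sacCer3 without saying how RPKM was computed. Of 7125 gene names 6162 (86.5%) matched R64. The genes and gene lists described here were chosen with earlier results of these data known. Technical libraries of 1 RNA extraction were averaged. Values were tested as log2(RPKM + 1) with limma 3.58.1 (trend) in R 4.3.3, on all 6 groups with 1 spread per gene, for genes at 1 RPKM or more in at least 2 replicates, with Benjamini-Hochberg adjustment over all 6727 genes at 0.05. In 96.7% to 98.7% of the values of at most 100 reads the recovered read number was whole within 0.1, and voom on these reads was an alternative, beside other scalings, pseudocounts and filters, single technical libraries, single replicates left out, pairs of groups alone and replicate blocks. Near-identical proteins were found with BLAST 2.17.0, and Python 3.11.15 was used for the rest. The CK2 library titled replicate 2 has the number 1 in its description, and the title was followed. Genes were named by rules on size of change, level, family and chromosome end. The motifs were searched on both strands of windows from 250 bases before to 50 bases after each start. The limma fit was tested on simulated data with known changes.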

Additional observations from a re-analysis of the deposited data

How the results depend on the processing

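Of 130 alternatives for the counts of genes called in the 5 comparisons, 90 kept the count within 1.5 times and 40 moved it. For the genes named by rule, 771 of 851 alternatives kept the call, 80 ended it and 0 turned the direction, and 43 of 67 results were called in every alternative. In serine against control the 2 higher genes became 1 with the first technical library only, and 0 with voom, with the 2 groups alone, with the replicate block and with a crossed block that was added after seeing the data. The 1 lower gene became 5 with a pseudocount of 5, 2 without a filter on low values, 2 with upper-quartile scaling, 3 with median-of-ratios scaling, 2 with the first technical library only, 2 with voom, 3 with the 2 groups alone, and 0 with the replicate block and with the crossed block. With 1 replicate left out there were 0 to 1 higher and 0 lower. In CK2 against WT upper-quartile scaling left 13 lower and leaving out a replicate 10 to 12. In H3T11A against YBL574 voom gave 9 higher and 80 lower, the 2 groups alone 0 higher and 9 lower, and leaving out a replicate 11 to 32 higher and 24 to 51 lower. In YBL574 against WT upper-quartile scaling gave 86 higher and 12 lower, median-of-ratios scaling 81 and 15, voom 27 lower and leaving out a replicate 27 to 34 lower. The cause was not tested. The counts of control against WT stayed within 1.5 times.

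With the replicate number as a block CK2 against WT had 45 higher and 25 lower, YBL574 against WT 50 and 54 and control against WT 97 and 38. Replicates of the same number did not deviate together: Spearman's rho over genes was -0.153 for serine against control, -0.011 for CK2 against WT, 0.008 for YBL574 against WT and 0.136 for control against WT, so the numbers were taken as names. No paired analysis was possible for H3T11A against YBL574 because they share only replicate 3. With 2 replicates per group, 8.04% to 18.8% of the genes at 3 reads or fewer and 95 near-identical copies, small differences of low genes and of single copies could not be resolved.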

Other observations

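The genes in these 2 paragraphs were chosen after their values were seen, and the patterns are given as values with no test. *FET4*, a low-affinity iron transporter, had 295 and 273 RPKM in serine, 324 and 309 in control, 129 and 114 in CK2, 60.4 and 52.5 in H3T11A, 116 and 105 in YBL574 and 151 and 169 in WT. Both H3T11A replicates lay below all the others. *IMD2*, an IMP dehydrogenase whose protein is 92.5% identical to that of *IMD3*, had 95.3 and 123 RPKM in H3T11A and 94.6 and 84.4 in YBL574, against 6.49 to 25.6 RPKM in the other groups. The copies *SNZ2* and *SNZ3* of vitamin B6 synthesis were lowest in H3T11A, at 6.04 and 5.56 RPKM for *SNZ2* and 5.85 and 5.67 RPKM for *SNZ3*, against 8.58 and 8.68 RPKM and 7.16 and 8.07 RPKM in YBL574.

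Some genes differed widely between the H3T11A replicates. *AAD10*, an aryl-alcohol dehydrogenase gene, had 17.5 RPKM in replicate 1 and 56.9 RPKM in replicate 3, which span the values of YBL574 (23.3 and 19.2) and WT (39.5 and 42.3). *MSC1* had 147 and 561 RPKM in replicates 1 and 3. *ERO1* had 165 and 75.6 RPKM, so that the replicate with the higher value was not the same for *MSC1* and *ERO1*.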
